A study of Mus musculus with 3 samples.

Results

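Phlda1 was followed as a single gene through single-cell RNA profiles of 3 mouse melanomas. It was found by its Entrez ID, 21664, as 1 of 36530 features of the deposited count tables, and its level was taken in each of the 25 cell clusters that the authors had named, in each tumor. The gene was chosen by its own measured values, its CPM and share of cells with a UMI over these clusters and tumors, so these levels are given as a description without a test. The tumors arose in C57BL/6 mice that carry an inducible Cre driven by the tyrosinase promoter, a Braf allele that Cre turns into its activated mutant form and a tdTomato reporter, and topical tamoxifen on the flank skin switched these alleles in melanocytes. All 3 groups share this genotype. One tumor was untreated, 1 had regressed under vemurafenib, an inhibitor of the mutant Braf kinase, and 1 had progressed under it, and the labels give neither the age of the animals nor the time on treatment. With 1 tumor per group, a difference between tumors cannot be set against the spread between animals, and every interval given is a 95% interval that covers counting error only. Where 3 values stand in a row, they are in the order untreated, regressed, progressed.

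PHLDA1, also known as TDAG51, is a small protein with a pleckstrin homology-like domain, a fold that binds membrane phosphoinositides. Its transcript is known to be induced when the RAF, MEK and ERK kinases of the MAPK pathway are active, and it is used with Dusp, Spry and Etv genes as a readout of that pathway in Braf mutant melanoma. It was first described in T cells and is also known to respond to endoplasmic reticulum stress.

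In the annotation of build GRCm38 (GENCODE), Phlda1 lies on the forward strand of chromosome 10, from 111506286 to 111508645, as a protein-coding gene. Its main transcript has 2 exons, 111506286-111507648 and 111508060-111508645. The whole coding sequence of 1215 bases, 111506405-111507619, lies in exon 1, and of the 615 bases of the 3′ UTR, the end that these libraries read, 586 lie in exon 2. A non-coding gene on the other strand, Gm28592 (111506575-111507662), overlaps exon 1. The study's methods state that reads were counted in sense orientation, and no other feature held the same counts as Phlda1 in every cell.

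The tables held 13321, 2601 and 22825 Phlda1 UMIs (unique molecular identifiers, the tags that count each captured RNA molecule once). Over all cells its level, in counts per 1000000 UMIs (CPM), was 600.0, 209.5 and 847 CPM. A Phlda1 UMI was found in 62.9% of the 4095 cells of the untreated tumor, in 34.9% of 3726 and in 68.3% of 4849. Cells of the regressed tumor were less deeply read (median 2658 UMIs, against 4496 and 4566), so shares of cells are also given after each cell was thinned to 1000 UMIs. At that depth they were 33.5%, 16.8% and 39.7%. The 3 tables shared 0 cell IDs. Most Phlda1 UMIs came from the non-immune stroma, the 10 fibroblast-like clusters named Stroma1 to Stroma10, which held 84.0%, 65.0% and 82.3% of them. Tumor cells held 1.87%, 14.7% and 7.16%.

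Erythrocytes, mature red cells that should make little of this transcript, were taken as a background. In the regressed tumor 60 of them (median 8464.5 UMIs per cell) held 25.4 CPM (13.5 to 43.4), and 16.7% of them (8.29 to 28.5) had a Phlda1 UMI, or 3.51% (0.428 to 12.1) after thinning. That was the lowest CPM of any cluster with at least 10 cells in any of the tumors, also with the deposited totals of these cells, which gave 48.1 CPM. It was not the lowest share: in regressed Macrophages 9.09% of cells had a UMI, or 2.17% after thinning, and in untreated NK_T_Cytolytic 0% of 14 thinned cells did. Haemoglobin RNA swells the totals of Erythrocytes, in which Hbb-bs, Hba-a1 and Alas2 averaged 110674 CPM per gene over the 3 tumors. This lowers the CPM of other genes there. Counted by cell, the 60 Erythrocytes held 13 Phlda1 UMIs, and 143 regressed Macrophages, shallower at a median of 1388 UMIs, held 14.

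**Figure D1:**
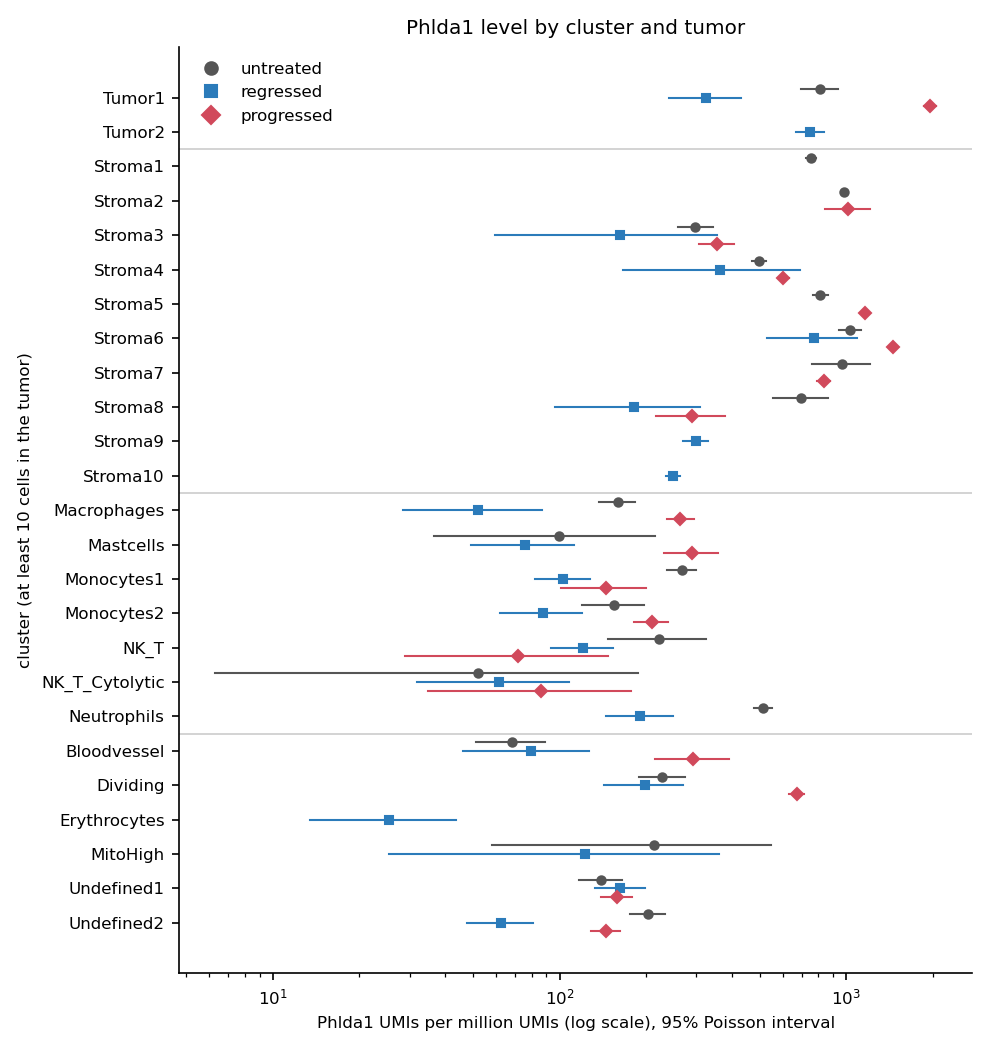
Phlda1 UMIs per 1000000 UMIs (x axis, log scale) in each cluster with at least 10 cells (y axis), with 1 symbol per tumor and its 95% Poisson interval. Tumor1 cells of the progressed tumor had the highest level, 1957 CPM, and regressed Erythrocytes the lowest, 25.4 CPM.

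In tumor cells Phlda1 was lowest in the regressed and highest in the progressed tumor. In Tumor1, the cluster that all 3 tumors shared, the level was 807 CPM (693 to 934, 178 UMIs in 44 cells) in the untreated tumor. After regression it was 324 CPM (240.0 to 429, 49 UMIs in 61 cells), and after progression 1957 CPM (1863 to 2055, 1621 UMIs in 156 cells). The 3 intervals did not overlap. The regressed level was lower than the untreated one by 1.31 on the log2 scale (log2 ratio -1.31, -1.80 to -0.85), and the progressed level was 6.03-fold above the regressed one (log2 ratio 2.59, 2.18 to 3.03) and 2.43-fold above the untreated one (1.28, 1.05 to 1.51).

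Tumor2 was nearly confined to the regressed tumor, with 349 cells there against 4 in each of the others. In those 349 cells, which were shallow at a median of 768 UMIs, Phlda1 stood at 748 CPM (670.2 to 833), above the 324 CPM of the Tumor1 cells of the same tumor. The 4 untreated Tumor2 cells held 1639 CPM (1280.4 to 2068) and the 4 progressed ones 1236 CPM (676 to 2074). Among the untreated ones 1 cell held 42 of the 71 UMIs, and these 71 are part of the 249 UMIs of all untreated tumor cells. Over Tumor1 and Tumor2 together the levels were 943 CPM (830 to 1068) in 48 untreated, 641 CPM (578 to 709) in 410 regressed and 1947 CPM (1854 to 2044) in 160 progressed cells. The regressed tumor was therefore closer to the untreated one in the pooled tumor cells (log2 ratio -0.56, -0.79 to -0.32) than in Tumor1.

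The tumor labels were checked against the reporter and melanocyte genes. Summed tdTomato, tWPRE, Sox10, Mlana, Pmel, Dct and Tyrp1 averaged 622 CPM per gene in Tumor1 and 660 CPM in Tumor2, and at most 26.2 CPM in any other cluster. Within regressed Tumor1, 40 cells with a reporter UMI held 234 CPM of Phlda1 (154 to 340.3) and 21 cells without one held 618 CPM (387 to 935). The cells without a reporter UMI were shallower, with a median of 712 UMIs against 2010.5. In regressed Tumor2 the 174 cells with a reporter UMI held 639 CPM (544 to 746) and the 175 without held 890.5 CPM (762 to 1034). In progressed Tumor1, 152 of 156 cells had a reporter UMI and held 1953 CPM.

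Cell by cell, Phlda1 was found in nearly every tumor cell of the progressed tumor. Of the 156 progressed Tumor1 cells, 96.8% had a Phlda1 UMI, with a median of 7 UMIs (quartiles 3 and 16) and at most 79. After thinning, 78.1% (70.7 to 84.5) of 151 cells had a UMI, and 19.9% had 4 or more. The untreated Tumor1 cells had a UMI in 41.5% (26.3 to 57.9) of 41 thinned cells and the regressed ones in 13.3% (5.05 to 26.8) of 45, and none of these cells had 4 or more. Thinned regressed Tumor2 cells had a UMI in 38.0% (29.4 to 47.3) of the 121 cells left of 349, and 4.13% had 4 or more. Counting error did not separate this share from that of untreated Tumor1. The UMIs were spread more evenly in the progressed than in the regressed tumor cells: the tenth of cells with the most Phlda1 held 31.3% of the UMIs in progressed Tumor1, 57.3% in untreated Tumor1, 79.6% in regressed Tumor1 and 64.0% in regressed Tumor2. Such shares also grow as fewer UMIs are read per cell.

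**Figure D2:**
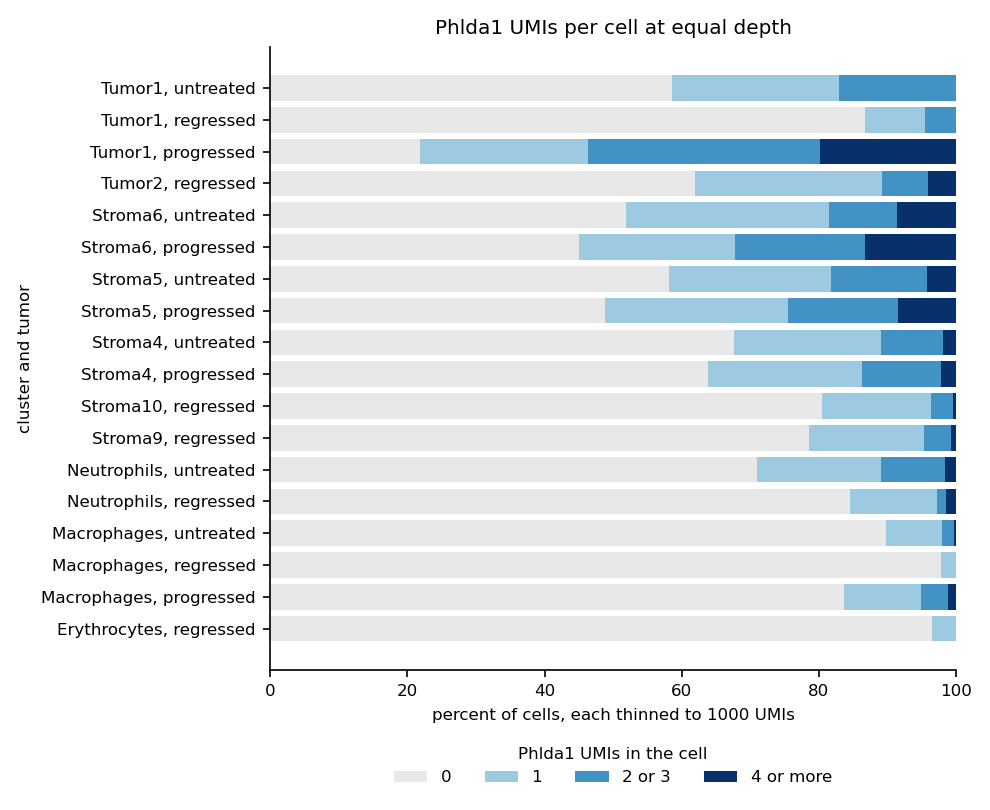
Percent of cells (x axis) with 0, 1, 2 or 3, and 4 or more Phlda1 UMIs after each cell was thinned to 1000 UMIs, in named clusters and tumors (y axis). In progressed Tumor1 only 21.9% of cells were without a Phlda1 UMI, against 58.5% in untreated and 86.7% in regressed Tumor1, and 96.5% in regressed Erythrocytes.

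The fibroblast-like stroma carried high Phlda1 in the untreated and progressed tumors and less in the regressed one. Over all stroma the level was 794 CPM (779.7 to 809) before treatment, 263 CPM (251 to 276) after regression and 1067 CPM (1052 to 1083) after progression. The regressed stroma was lower than the untreated one (log2 ratio -1.59, -1.67 to -1.52) and the progressed stroma was higher than the regressed one (2.02, 1.95 to 2.09). The progressed stroma was above the untreated one by 0.43 on the log2 scale (0.39 to 0.46). Fibroblast genes (Col1a1, Col1a2, Col3a1, Dcn, Lum, Pdgfra, Fap) averaged between 4712 and 8538 CPM per gene in the 10 Stroma clusters.

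The stroma of the tumors was made of different clusters, so the same clusters could be compared only in part. Among stroma clusters with at least 10 cells, Stroma6 stood first in all 3 tumors, at 1032 CPM (942 to 1127) in 83 untreated cells, 771 CPM (528 to 1089) in only 13 regressed cells and 1450 CPM (1419 to 1481) in 1255 progressed cells. Stroma5 stood at 812 CPM (764 to 862) in the untreated and 1158 CPM (1130 to 1187) in the progressed tumor and was not seen in the regressed one. In Stroma4 the levels were 495 CPM (468 to 523) untreated, 364 CPM (166 to 690.4) in 20 regressed cells and 604 CPM (579 to 629) progressed. These 3 clusters were higher in the progressed than in the untreated tumor, with log2 ratios of 0.49, 0.51 and 0.29.

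Counting error did not separate the untreated from the progressed tumor in Stroma2, Stroma3 and Stroma7. Stroma3 stood at 298 CPM (258 to 342) in 120 untreated and 354 CPM (306 to 407) in 88 progressed cells (log2 ratio 0.25, -0.04 to 0.54). Stroma2 stood at 980.0 CPM (955 to 1006) in 1144 untreated cells and at 1016 CPM (844 to 1212) in 26 progressed cells (log2 ratio 0.05, -0.22 to 0.31). In Stroma7 the levels were 964 CPM (759 to 1209) in 18 untreated and 834 CPM (793 to 877) in 444 progressed cells (-0.21, -0.54 to 0.15). Stroma8 went the other way: 698 CPM (557 to 863) in 23 untreated, 181 CPM (96.6 to 310.1) in 18 regressed and 289 CPM (218 to 376) in 21 progressed cells. When the 7 shared stroma clusters were weighted equally, the mean log2 ratio of progressed to untreated stroma was 0.02, against 0.43 for the pooled cells.

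The regressed stroma was mostly Stroma10, with 1537 of 1918 cells, and Stroma9, with 310 cells. Stroma10 held 249 CPM of Phlda1 (235 to 263) and Stroma9 298 CPM (269.9 to 328). Both clusters had at most 7 cells in any other tumor, so that their cell identity and the regressed tumor cannot be told apart. Without Stroma10 the log2 ratio of regressed to untreated stroma was -1.37 (381 regressed cells). Over the 4 stroma clusters that both tumors held with at least 10 cells, 63 regressed cells in all, the mean log2 ratio was -0.92.

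Immune cells had less Phlda1 than stroma in each tumor, at 305 CPM (289 to 321), 102.5 CPM (91.2 to 115) and 227 CPM (210.0 to 244). Untreated Neutrophils led them with 511 CPM (476 to 549, 778 UMIs in 391 cells), and 29.0% (24.5 to 33.8) of them had a UMI after thinning. In the regressed tumor 216 Neutrophils held 192 CPM (145 to 248), lower by 1.42 on the log2 scale (log2 ratio -1.42, -1.83 to -1.03). The progressed tumor had 4 Neutrophils with 0 Phlda1 UMIs, and at 7058 UMIs in all a count of 0 allows up to 425 CPM by the floor of 3 UMIs, or 523 CPM as the upper bound of the interval used for the other clusters.

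Among immune cells, macrophages had the tumor order of the stroma. They stood at 160 CPM (138 to 184) in 312 untreated, 52.0 CPM (28.4 to 87.2) in 143 regressed and 264 CPM (236 to 294) in 339 progressed cells, and the 3 intervals were apart. In Monocytes1 the order was different, with 267 CPM (238 to 299) untreated, 103 CPM (82.4 to 128) regressed and 145 CPM (101 to 200.3) progressed. Monocytes2, which also carried dendritic cell genes, had 155, 87.4 and 209 CPM. Mastcells had 99.3 CPM (36.4 to 216) in 16 untreated, 76.0 CPM (49.2 to 112) in 106 regressed and 289 CPM (231 to 357) in 85 progressed cells. The NK_T cluster had 223 CPM (147 to 325), 121 CPM (93.2 to 154) and 71.9 CPM (28.9 to 148), in 25, 180 and 17 cells. NK_T_Cytolytic had 52.1, 61.6 and 86.5 CPM, on 2, 12 and 7 UMIs.

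The sign of the log2 ratio between the progressed and the untreated immune cells, without TMM scaling, depended on the neutrophils. Over all immune cells the progressed tumor was lower (log2 ratio -0.43, -0.56 to -0.29). Without Neutrophils, of which the untreated tumor had 391 and the progressed tumor 4, the log2 ratio was 0.19. With the 6 shared clusters weighted equally the mean was 0.15, with Mastcells on 6 and NK_T_Cytolytic on 2 untreated UMIs. Both values are small beside the scaling: over all immune cells the median log2 ratio of all genes was 0.24. TMM scaling, not applied to these 2 values, shifts the ratios of all immune cells by -0.27.

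Blood vessel and dividing cells, which stand outside the 3 compartments, had the most Phlda1 in the progressed tumor. In Bloodvessel the level was 68.0 CPM (51.0 to 89.0) in 74 untreated, 79.3 CPM (46.2 to 127) in 48 regressed and 293 CPM (214 to 391) in 28 progressed cells. One progressed cell held 21 of the 46 UMIs, and without the cell with the most Phlda1 in each tumor the log2 ratio to the untreated tumor was 1.49 (0.73 to 2.22) in place of 2.11. Dividing cells had 228 CPM (189 to 273) untreated, 199 CPM (143 to 270.3) regressed and 672 CPM (634 to 712) progressed. These cells differed in kind: the median of the 7 fibroblast genes in Dividing cells was 21.1%, 7.97% and 54.6% of the level in stroma, and the part of this in the Phlda1 difference was not tested.

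Undefined1, a cluster that the authors left without a cell type and in which keratinocyte genes were the highest of the marker lists, had Phlda1 levels that counting error did not separate. It stood at 139 CPM (117 to 165) in 132 untreated, 163 CPM (133 to 198) in 121 regressed and 159 CPM (139 to 180) in 194 progressed cells, and all 3 log2 ratios had intervals that held 0. Undefined2, with still more keratinocyte RNA, had 204, 62.5 and 145 CPM, but 1 untreated cell held 75 of 205 UMIs and 1 progressed cell 56 of 303.

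Set in order, the clusters of the 3 tumors spread over 19.8-fold, 30.4-fold and 27.2-fold. The untreated order began with Stroma6, Stroma2, Stroma7, Stroma5 and Tumor1. The progressed order began with Tumor1, Stroma6, Stroma5 and Stroma2, and the regressed order with Stroma6, Tumor2, Stroma4 and Tumor1. Few neighbours in these orders had intervals that were apart: 2 of 20 pairs, 1 of 20 and 6 of 17.

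Since stroma held most Phlda1 RNA, the level in each other cluster was set beside fibroblast genes measured in the same cells, as a percent of the level in the stroma of that tumor. The fibroblast genes themselves spread over a range of percents, and the part of RNA carried over from stroma cells was not tested. In macrophages Phlda1 was at 20.1% of the stroma level in the untreated tumor, and the 7 fibroblast genes lay between 3.39% and 8.85%. In the regressed tumor Phlda1 was at 19.8% with the fibroblast genes between 6.87% and 22.0%, and in the progressed tumor at 24.7% with a fibroblast median of 7.70%. Neutrophils were further apart, at 64.4% against a fibroblast median of 10.2% in the untreated and 72.8% against 13.0% in the regressed tumor. Phlda1 lay above the highest of the 7 fibroblast genes in 9 of 13, 13 of 15 and 7 of 11 clusters. Among the others were progressed NK_T (6.74%, below the median of 8.90%) and progressed Monocytes1 (13.6%, with a highest fibroblast gene of 16.2%). Regressed Erythrocytes, taken above as the background, also had Phlda1 above the fibroblast genes, at 9.65% against 1.62% to 6.54%.

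**Figure D3:**
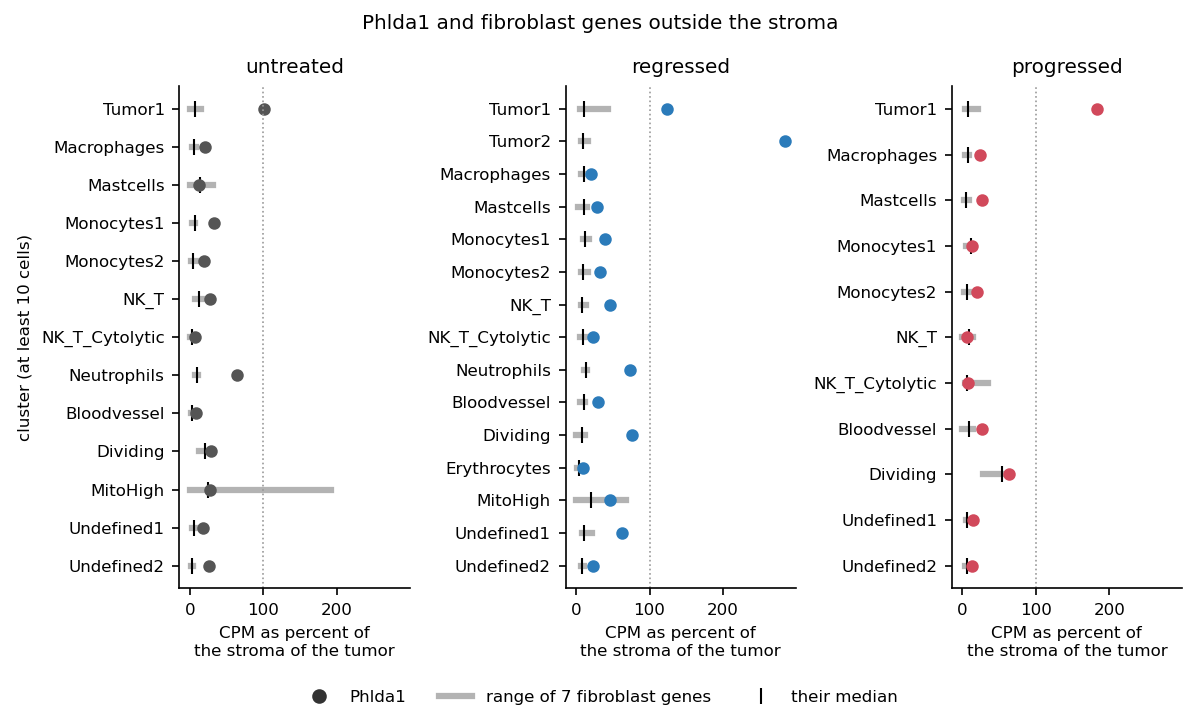
Level of Phlda1 (points) and of 7 fibroblast genes (grey range, with a black tick at the median) in each non-stroma cluster with at least 10 cells (y axis), as a percent of the level in the stroma of the same tumor (x axis). Phlda1 lies to the right of the grey range in 9 of 13, 13 of 15 and 7 of 11 clusters of the untreated, regressed and progressed tumor.

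Within clusters that 2 tumors held with at least 10 cells each, the regressed tumor had the lower Phlda1 level wherever counting error told the tumors apart. Against the untreated tumor, 0 of 17 clusters were higher and 8 were lower (median log2 ratio -0.82), and the intervals of the other 9 held 0. The progressed tumor was higher than the regressed one in 8 of 15 clusters and lower in 0 (median 1.12). Between the progressed and the untreated tumor, 9 of 18 clusters were higher and 4 were lower (median 0.36). The 4 lower clusters were Stroma8 (-1.27), Monocytes1 (-0.88), NK_T (-1.63) and Undefined2 (-0.49). Without the cell with the most Phlda1 UMIs in each tumor, 9 of 17 clusters were lower in the first comparison, 10 of 15 higher in the second, and 9 of 18 higher and 3 lower in the third, in which Undefined2 was no longer lower (-0.14, -0.45 to 0.18). In the regressed tumor 1 cell decided the value of Stroma6 and of Stroma3. In Stroma6, 1 of 13 cells held 18 of 32 UMIs. Without the top cells its log2 ratio to the untreated tumor went from -0.42 to -1.27 (-2.16 to -0.51). In Stroma3, 1 of 12 cells held 4 of 6 UMIs, and the ratio went from -0.87 to -2.32 (-5.38 to -0.45).

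**Figure D4:**
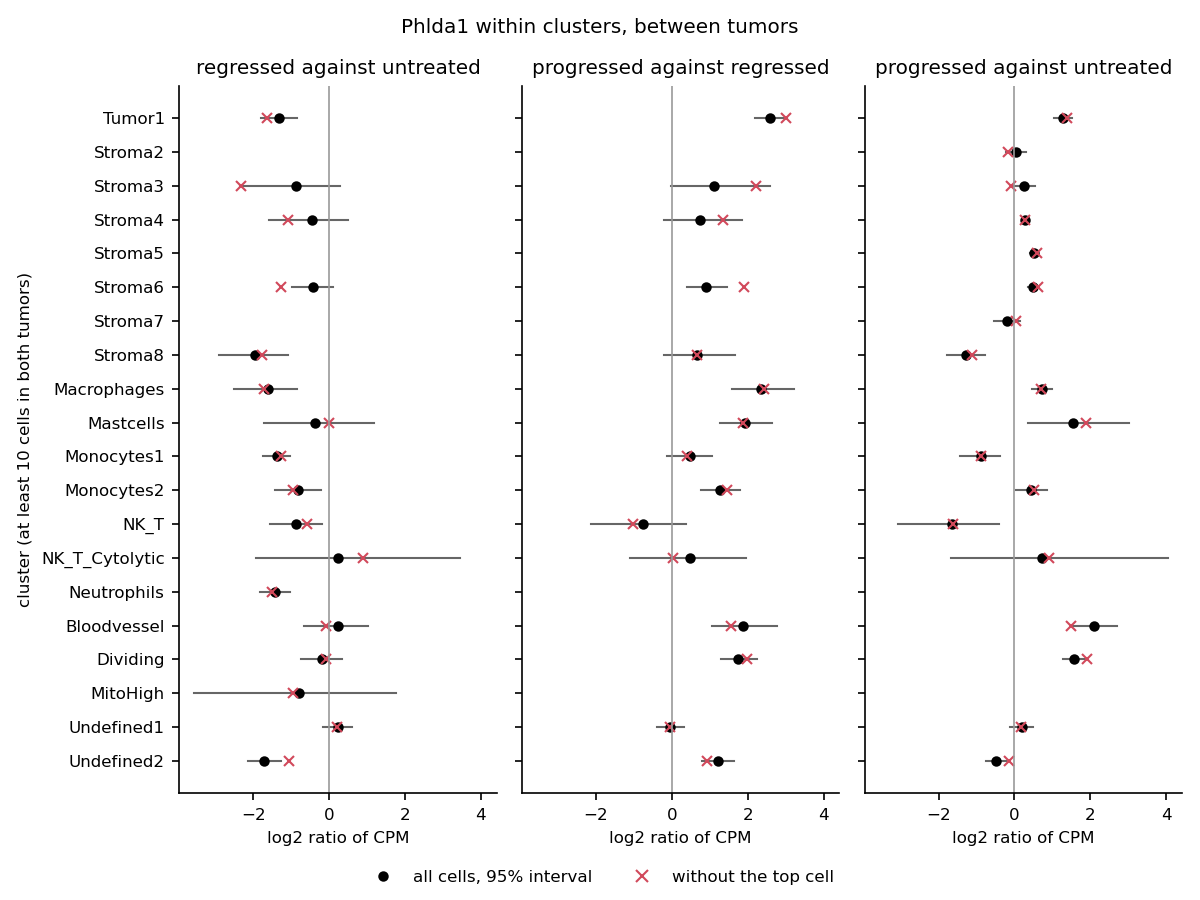
Log2 ratio of Phlda1 CPM between 2 tumors (x axis) within each cluster that both held with at least 10 cells (y axis), with its 95% interval, and the same ratio without the top Phlda1 cell of each tumor (crosses). Regressed against untreated, no interval lies wholly above 0, and progressed against regressed, none lies wholly below 0.

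The differences of Phlda1 were set beside those of all genes. This is a description only, since the gene was chosen by these same values. Of genes with at least 20 UMIs in the pair of tumors, 7.09% were lower by at least 2-fold in regressed than in untreated stroma, and 2.85% had a lower log2 ratio than Phlda1. From regressed to progressed stroma 4.99% of genes were higher by at least 2-fold and 1.03% had a higher ratio than Phlda1. From untreated to progressed stroma Phlda1 was not past 2-fold, as 3.57% of genes were, and 12.5% had a higher ratio. In tumor cells 5.54% of genes were higher by at least 2-fold in the progressed than in the regressed tumor, with 1.63% above Phlda1, and 9.2% in the progressed than in the untreated one, with 8.55% above Phlda1. The regressed tumor cells were not past 2-fold below the untreated ones, as 6.7% of genes were. In immune cells 3.81% of genes were lower by at least 2-fold from untreated to regressed, with 1.80% below Phlda1, and 3.91% higher from regressed to progressed, with 3.06% above it. From untreated to progressed immune cells 5.73% of genes were lower by at least 2-fold, and Phlda1 was not.

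The other 8 MAPK target genes that the study used did not share 1 direction. The study chose this list to follow the pathway in these tumors. A gene is called higher or lower here where its interval excludes 0. In tumor cells 2 genes were higher and 2 lower after regression than before treatment, as 15.8% and 11.9% of all genes were (median log2 ratio 0.55, against 0.11 over all genes). From the regressed to the progressed tumor cells 4 were higher and 2 lower (0.51 against -0.08), beside 12.3% and 17.6% of all genes. From the untreated to the progressed ones 4 were higher and 1 lower (0.82 against 0.03), beside 9.7% and 9% of all genes.

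In stroma the same 3 comparisons gave 3 higher and 3 lower (median -0.03, with 37.6% and 22.8% of all genes), 4 and 3 (0.33, with 20.4% and 40.3%), and 4 and 2 (0.17, with 20.9% and 27.4%). In immune cells they gave 5 and 1 (0.99, with 49.5% and 10.2%), 1 and 3 of 7 measured (-0.13, with 11.6% and 34.5%), and 3 and 2 (0.44, with 31.8% and 11.2%). The median log2 ratio over all genes was 0.51 in the first of these immune comparisons. With TMM scaling, which sets the bulk of genes to no change, the immune counts were 4 and 2, 2 and 1, and 3 and 3, and the stroma counts 2 and 5, 5 and 3, and 4 and 2.

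Dusp6, a phosphatase that removes the activating phosphates of ERK, had the order of Phlda1 in tumor cells and stroma. In tumor cells it stood at 258, 139 and 356 CPM, and in stroma at 160, 64.8 and 190.0 CPM. Its log2 ratios in stroma were -1.31, 1.55 and 0.24, beside -1.59, 2.02 and 0.43 for Phlda1. In immune cells it was at 120, 123 and 124 CPM, where Phlda1 ranged from 102.5 to 305 CPM, and with TMM scaling its log2 ratio of regressed to untreated immune cells went from 0.04 to -0.55. Fosl1, an AP-1 transcription factor, was lower after regression in all 3 compartments (log2 ratio to the untreated tumor -2.85 in tumor cells, -1.76 in stroma, -2.75 in immune cells). These Fosl1 ratios rest on few UMIs and on clusters that the tumors held unequally. Regressed Tumor1 held 1 Fosl1 UMI, Tumor2 4 and Stroma10 5. In untreated stroma 24 UMIs were in Stroma1, a cluster with 1 cell in the regressed tumor. Neutrophils held 99 untreated and 4 regressed UMIs.

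Dusp4, a nuclear phosphatase of the same family as Dusp6, and the transcription factor Etv1 went the other way from Phlda1 in the regressed tumor. Dusp4 was at 11.4, 73.8 and 23.8 CPM in tumor cells, and at 2.20, 12.6 and 4.72 CPM in stroma. Its regressed stroma level was near that of regressed Erythrocytes (9.76 CPM), with 11.7 CPM in Stroma10. Of the stroma clusters shared with the untreated tumor, regressed Stroma3, Stroma4 and Stroma6 held 0 Dusp4 UMIs and Stroma8 held 1. Dusp4 was also higher in regressed than in untreated Macrophages (0.826 and 22.3 CPM), and lower in Mastcells (33.1 and 18.2 CPM). Etv1 was at 45.5, 158 and 96.5 CPM in tumor cells and at 24.8, 59.8 and 30.1 CPM in stroma. Spry4, an inhibitor of receptor tyrosine kinase signaling, was lower in regressed stroma (55.3, 32.5 and 46.5 CPM), and its relative Spry2 was lowest in progressed stroma (104, 116 and 63.9 CPM). Etv4 was higher in the progressed than in the untreated stroma (70.0 and 147 CPM), and Etv5 did not separate the tumors in tumor cells, nor in stroma unless scaled by TMM (-0.29 from untreated to regressed and 0.45 from regressed to progressed).

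**Figure D5:**
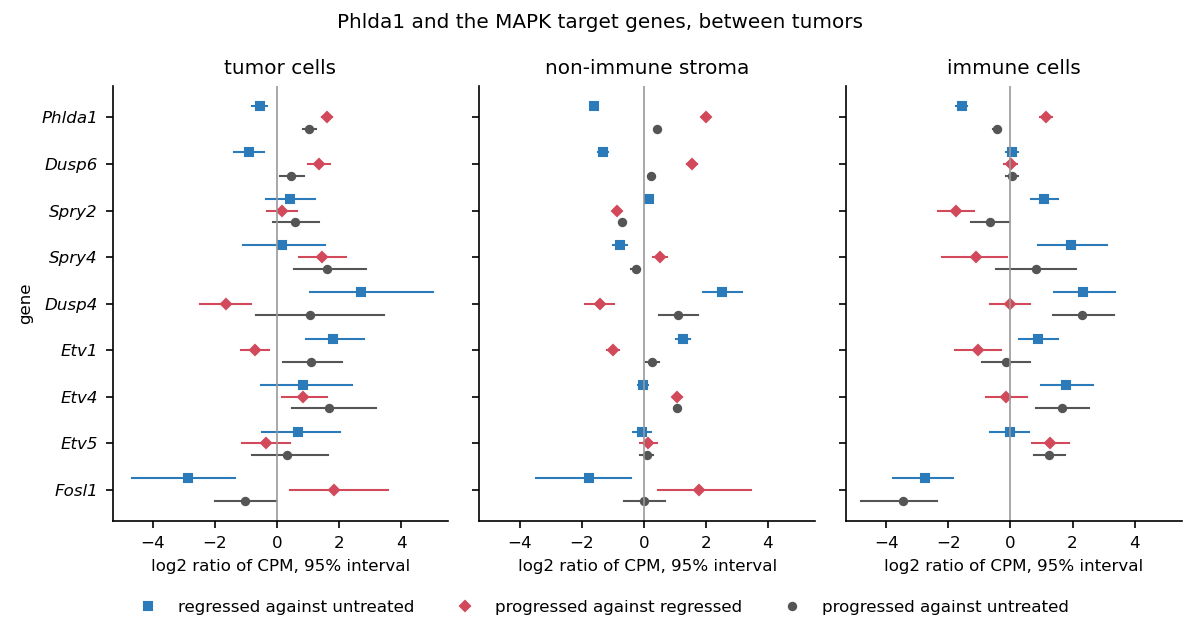
Log2 ratio of CPM between 2 tumors (x axis) with its 95% interval, for Phlda1 and the 8 other MAPK target genes (y axis), in tumor cells, stroma and immune cells. Dusp6 follows Phlda1 in tumor cells and stroma, and Dusp4 and Etv1 lie on the other side of 0 from Phlda1 in the regressed tumor.

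Most immediate early genes, which switch on within minutes of a growth signal or of tissue handling, had the direction of Phlda1 in both comparisons with the regressed tumor. Of the 17 genes, 16 were lower and 1 was higher in regressed than in untreated stroma (median log2 ratio -1.10, against 0.14 over all genes, of which 22.8% were lower). From regressed to progressed stroma 16 were higher and 0 lower (0.99 against -0.20, with 20.4% of all genes higher). In tumor cells 11 of 16 measured were lower and 1 was higher from untreated to regressed, beside 11.9% and 15.8% of all genes. From regressed to progressed tumor cells 12 of 17 were higher and 1 was lower, beside 12.3% and 17.6% of all genes. In immune cells the counts were 12 lower and 4 higher (10.2% and 49.5% of all genes), then 14 higher and 0 lower (11.6% and 34.5%). Fos, the archetype of the group, was at 4995, 2329 and 5006 CPM in stroma. The stress-induced factor Atf3 was at 133, 21.5 and 72.0 CPM and the phosphatase Dusp1 at 729, 204 and 697 CPM in the same cells. These genes are also known to be induced while tissue is dissociated, and the part of cell handling in the Phlda1 differences was not tested.

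Between the progressed and the untreated tumor the immediate early genes did not follow Phlda1. In tumor cells 10 of 17 were lower and 4 higher, beside 9% and 9.7% of all genes, while Phlda1 was 2.06-fold higher. Fos was at 3539 CPM in untreated and 2258 CPM in progressed tumor cells, and Ier3, a survival factor, at 1079.9 and 295 CPM. In stroma 11 were lower and 5 higher, beside 27.4% and 20.9% of all genes. In immune cells 13 were higher and 3 lower, beside 31.8% and 11.2% of all genes, while Phlda1 was lower, and with TMM scaling, which shifts the log2 ratios of these cells by -0.27, the counts were 7 higher and 4 lower.

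Of the relatives of Phlda1, Phlda2, an imprinted gene known for limiting placental growth, was hardly detected, at 0 to 7.58 CPM in the 3 compartments. Phlda3, a p53 target that restrains the kinase Akt, had another pattern. It was at 671, 582 and 622 CPM in tumor cells, where no pair of tumors separated except regressed and progressed with TMM scaling (log2 ratio 0.22), and at 489, 788 and 733 CPM in stroma. Regressed stroma thus held more Phlda3 than untreated stroma (log2 ratio 0.69) and less Phlda1. Within shared stroma clusters the direction of Phlda3 was mixed. It was higher in regressed than untreated Stroma4 (1697 and 1146 CPM) and Stroma8 (83.7 and 32.8 CPM), and lower in Stroma3 (298 and 425 CPM) and Stroma6 (121 and 249 CPM). In immune cells Phlda3 was at 38.4, 123 and 50.8 CPM. Every regressed immune cluster held a like level, from 103 CPM in NK_T_Cytolytic to 161 CPM in Neutrophils. Regressed Erythrocytes held 60.5 CPM and Stroma10 917 CPM, and the part of RNA carried over from stroma cells was not tested. The direction of Phlda3 from regressed to progressed stroma (-0.10) flipped with TMM scaling (0.20).

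Haemoglobin RNA marked the regressed library as different from the others. All 4 haemoglobin genes were higher in regressed than in untreated stroma (median log2 ratio 5.33) and lower in progressed than in regressed stroma (-8.76), and they were 4 of 4 higher in regressed than in untreated immune cells (5.35). In tumor cells the 2 measured genes were higher (4.52). Taking haemoglobin and mitochondrially encoded genes out of the totals left the Phlda1 ratio of every compartment within its counting interval.

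Within a cluster of 1 tumor, cells with and without a Phlda1 UMI were compared after thinning, in the 18 groups with at least 30 cells of each kind. The summed MAPK list without Phlda1 was higher in cells with a UMI in 3 groups and lower in 0 (median log2 ratio 0.19), and the intervals of the other 15 held 0. Immediate early genes were higher in 4 groups and lower in 2 (median 0.02), and endoplasmic reticulum stress genes higher in 2 and lower in 0 (0.02). Heat shock genes were higher in 0 groups and lower in 2 (-0.07), and Phlda2 with Phlda3 higher in 0 and lower in 2 (0.10). The highest value of the immediate early list, 0.70 (0.44 to 0.95), and of the endoplasmic reticulum stress list, 0.50 (0.18 to 0.83), was in regressed Tumor2, the shallow cluster described above.

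The genes whose level most resembled that of Phlda1 were sought over the 53 groups of at least 20 cells, by Pearson's r of log2(CPM + 10) among 7280 genes with a mean of at least 20 CPM. The groups share 3 libraries, so r is a description. The 10 highest were Bgn (0.78), Tnfaip6 (0.77), Nnmt (0.77), Selenok (0.76), Snhg18 (0.76), Epdr1 (0.76), Kdelr2 (0.75), Rab6a (0.75), Efemp2 (0.75) and Chpf (0.75). Bgn encodes the matrix proteoglycan biglycan, Tnfaip6 a hyaluronan-binding protein, Efemp2 an elastic fibre protein and Chpf an enzyme that builds chondroitin. Kdelr2 returns proteins to the endoplasmic reticulum and Rab6a directs traffic at the Golgi. Over all cells Tnfaip6 was at 73.6, 31.3 and 156 CPM, and Bgn at 3107, 644 and 2166 CPM. The 5 lowest were Entrez ID 100862447, which has no symbol here (-0.62), Rps6ka1 (-0.62), Dock8 (-0.61), Arl4c (-0.60) and LOC100862431 (-0.58).

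None of the list genes was among the highest-ranked genes above, which were selected by r itself. Xbp1 (0.61) and Atf4 (0.59), transcription factors of the endoplasmic reticulum stress response, came first among the lists. Of the MAPK list Spry4 reached 0.57 (rank 347), Spry2 0.49, Etv4 0.46, Etv1 0.38 and Dusp6 0.33. Etv5, Fosl1 and Dusp4 were under the filter, and had 0.44, 0.05 and -0.10 among all genes of at least 100 UMIs. Phlda3 had 0.49 and Fos 0.45.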

How the data were processed

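Droplet libraries that read transcript 3′ ends were made from 3 tumors. The deposited tables hold counts of UMIs per gene and cell, which the authors made by aligning reads to GRCm38 with GSNAP and counting unique sense reads over exons. Cells under 300 UMIs were left out by the authors. The cell table's labels are of the other unit, cluster names deposited as made with Seurat 2.2.0, and its totals per cell are counts. Over all cells of a tumor, table sums exceeded those totals by 4.42% to 6.09%. In regressed Erythrocytes the gap was larger, with 25.4 CPM of Phlda1 by table sums and 48.1 CPM by deposited totals. The source was not found.

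UMIs were summed per cluster and tumor (Python 3.11.15, scipy 1.17.1), with exact Poisson intervals for CPM, Clopper-Pearson intervals for shares and exact conditional binomial intervals for log2 ratios, at 95%. "Higher" and "lower" mean an interval that excludes 0. No test between tumors was possible. Cells were thinned to 1000 UMIs with a fixed seed, and shallower cells were left out. TMM factors came from edgeR 4.0.16. The log2 ratio step and the search for genes most like Phlda1 were tested on simulated data, and thinning and TMM scaling were not. The named genes are Phlda1, the list members and the 10 most and 5 least correlated genes. The gene and the lists were chosen with earlier results of these data known. Doublets were not called here. Part of the genotype that all groups share is not reported here.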

Additional observations from a re-analysis of the deposited data

Results flagged for a closer look

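Between the progressed and the untreated tumor, clusters of 1 compartment had Phlda1 log2 ratios with counting intervals on opposite sides of 0. The difference between such clusters was not tested, since each group held 1 tumor.

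In stroma Phlda1 was higher in the progressed tumor in Stroma4 (0.29), Stroma5 (0.51) and Stroma6 (0.49) and lower in Stroma8 (-1.27, 21 and 23 cells). In immune cells it was higher in Macrophages (0.73), Mastcells (1.54) and Monocytes2 (0.44) and lower in Monocytes1 (-0.88) and NK_T (-1.63, on 7 and 27 UMIs). Among the other clusters it was higher in Bloodvessel (2.11) and Dividing (1.56) and lower in Undefined2 (-0.49).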

How the results depend on the processing

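No paired analysis was possible because each group held 1 tumor. Of 81 recomputed log2 ratios of Phlda1 between tumors, 46 stayed inside the counting interval, 33 moved outside it with the same direction, and 2 turned. With TMM scaling the stroma ratios were -1.84 (regressed to untreated), 2.33 (progressed to regressed) and 0.49 (progressed to untreated), and the immune ratios -2.16, 1.46 and -0.70. In Tumor1 alone, the only shared tumor cluster, the 3 ratios were -1.31, 2.59 and 1.28. With shared clusters weighted equally they were -0.92, 0.86 and 0.016 in stroma, and -0.89 and, turned in direction, 0.15 for regressed and progressed to untreated immune cells. In cells thinned to 1000 UMIs the progressed tumor cells were at 1.87 over regressed and 1.54 over untreated ones, the progressed stroma at 0.36 over untreated, and immune cells at -1.23 (regressed to untreated) and 0.69 (progressed to regressed). With equal weight per cell the tumor cells were at -0.20 (regressed to untreated) and 1.45 (progressed to untreated), the stroma at 0.36 (progressed to untreated) and the immune cells at 0.94 (progressed to regressed). Without the 5% of cells with the most Phlda1 UMIs the tumor cells were at -1.07 and 2.24 (first 2 comparisons), and the immune cells at -1.78 and -0.63 (to untreated). Leaving out the deepest 5% of cells, the progressed tumor cells were at 1.27 over untreated ones. In settings chosen after seeing the data, leaving out Neutrophils gave -1.11 and 0.19 (to untreated), the second turned, and leaving out Stroma10 gave -1.37 and 1.80 (first 2 comparisons). Which cells enter a compartment sets these last values by construction, and the cause of the others was not tested.

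With the deposited totals the levels over all cells were 631, 222 and 884 CPM (untreated, regressed, progressed). Thinned shares of cells with a UMI were 33.5%, 16.8% and 39.7%. Of the 10 genes most like Phlda1, 6 were shared with Spearman correlation, 6 with a pseudocount of 1 CPM, 9 with all genes of at least 100 UMIs and 4 with groups of at least 50 cells. With cells thinned to 2000 UMIs, cells with a Phlda1 UMI had more endoplasmic reticulum stress RNA in 4 groups and less in 0, more heat shock RNA in 3 and less in 1, more immediate early RNA in 7 and less in 3, and more MAPK RNA in 3 and less in 1. These 18 groups were not the 18 of the thinning to 1000 UMIs: untreated Stroma6, progressed Tumor1 and regressed Tumor2 were out. The MAPK value of progressed Stroma4 went from 0.45 to -0.14. Depth limits most the regressed tumor cells, of which 244 of 410 had under 1000 UMIs, while the untreated tumor cells were few (48) and not shallow.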

Other observations

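Genes of the endoplasmic reticulum stress and heat shock responses were measured in the same compartments. Where 3 values stand in a row, they are in the order untreated, regressed, progressed. Of the 8 endoplasmic reticulum stress genes measured in stroma, 3 were higher and 2 lower in regressed than in untreated stroma, where 37.6% and 22.8% of all genes were, so the list stood near the share over all genes. In progressed against regressed stroma 3 were higher and 3 lower, beside 20.4% and 40.3% of all genes, and in progressed against untreated stroma 4 and 0, beside 20.9% and 27.4%. In tumor cells the counts were 2 and 2 of 7 (15.8% and 11.9% of all genes), 2 and 3 of 6 (12.3% and 17.6%), and 2 and 2 of 6 (9.7% and 9%). In immune cells they were 4 and 1 of 8 (49.5% and 10.2%), 2 and 3 of 6 (11.6% and 34.5%), and 4 and 1 of 7 (31.8% and 11.2%). With TMM scaling the immune counts were 1 and 3, 3 and 1, and 2 and 2, and the stroma counts 2 and 3, 3 and 2, and 4 and 0. Hspa5, the main chaperone of the endoplasmic reticulum, was highest in the regressed tumor, at 561, 1809 and 791 CPM in tumor cells. Atf4, the factor that drives the amino acid response, was lowest there, at 269, 174 and 287 CPM in tumor cells and 222, 137 and 274 CPM in stroma.

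Of the 8 heat shock genes, 2 were higher and 5 lower in regressed than in untreated stroma, beside the same 37.6% and 22.8% of all genes. In progressed against regressed stroma 2 were higher and 3 lower (20.4% and 40.3%), which became 5 and 2 with TMM scaling, and in progressed against untreated stroma 1 and 3 (20.9% and 27.4%). In tumor cells the counts were 2 and 1 of 7 (15.8% and 11.9%), 0 and 3 of 7 (12.3% and 17.6%), and 0 and 1 of 6 (9.7% and 9%). In immune cells they were 5 and 1 (49.5% and 10.2%), 2 and 1 (11.6% and 34.5%), and 5 and 0 (31.8% and 11.2%), and with TMM scaling 2 and 1, 4 and 1, and 2 and 1. Hspa1a, the inducible chaperone, was at 52.1, 26.5 and 43.3 CPM in stroma.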
